A study of Mus musculus with 8 samples.

Results

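Mouse embryonic stem cells (ESCs) depleted of Ubn2 by shRNA were compared with ESCs that received a control shRNA, by RNA-seq. The comparison rests on 4 of the 8 libraries of the study, 2 labelled Ubn2_KD and 2 labelled Control, and every gene with enough counts to be tested was included. These were 18219 of the 55418 genes in the table. The remaining 4 libraries, 2 of Hira_KD and 2 of Ubn1_KD ESCs, were used where Ubn2 depletion was set beside the loss of another member of the same chaperone complex. All 8 libraries came from E14 ESCs, a mouse line for which the labels give the strain as 12910la, grown on gelatin in medium with serum and LIF. Neither the labels nor the methods name a clone. Each group received 1 µg of a pSuper-puro plasmid and was kept in puromycin for 3 days, so the control cells also passed through transfection and selection. The labels give the genotype of the control as wild type, and the study's methods name a luciferase shRNA as the control hairpin. Cells were therefore measured a few days after transfection, as a population under selection.

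Ubn2 and its paralogue Ubn1 are alternative subunits of the HIRA complex, which also holds Hira and Cabin1 and works with Asf1a. The complex places the histone variant H3.3 into chromatin outside DNA replication, at active genes, at regulatory elements and over some silent repeats. In ESCs, H3.3 also takes part in silencing endogenous retroviruses, and transcripts driven from such elements are a feature of the rare ESCs that resemble the 2-cell embryo. The study depleted single members of the complex to ask which repeats and genes each of them controls.

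The sequencing depth allowed changes of moderate size to be seen. Counts on genes totalled 21174666 and 32706053 in the control libraries and 21755772 and 19710040 in the Ubn2-depleted libraries. Among 10356 genes at 10 CPM (counts per 1000000 counts on genes) or more, only 29 differed by more than 1.5-fold between the control libraries and 30 between the Ubn2-depleted libraries. Expression values below are CPM on library sizes scaled by the TMM method. A gene was called upregulated or downregulated when the quasi-likelihood test of edgeR gave a Benjamini-Hochberg adjusted p under 0.05 and the fold change exceeded 1.5. Neither the labels nor the methods say whether libraries of a group came from separate cultures, so the p-values measure the spread between libraries, which may be technical. The labels give no batch or date.

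Ubn2 itself was reduced, and no other subunit of the complex was called lower. Ubn2 stood at 50.1 and 52.3 CPM in control ESCs and at 29.9 and 24.4 CPM after its depletion. Both depleted libraries lay below all 6 others, in which Ubn2 ranged from 50.1 to 63.2 CPM. The log2 fold change was -0.90 (SE 0.10, n = 2 per group, edgeR adjusted p = 7.2e-07), so a large part of the transcript was still counted. Ubn1 gave 53 and 44.6 CPM in control and 42.5 and 40.0 CPM in depleted cells (log2 fold change -0.22), Hira was at 0.19 and Cabin1 at 0.07. None of these 3 was called. Asf1a, the chaperone that hands histones to HIRA, was upregulated from 28.0 and 31.4 to 46.3 and 47.0 CPM (log2 fold change 0.67, SE 0.10). Of the 21 chaperones and subunits on this list, these were the only calls, Asf1a higher and Ubn2 lower. H3f3b, which encodes H3.3, was at 501 and 545 CPM in control and 701 and 682 CPM in depleted cells, a log2 fold change of 0.42 that stayed under the 1.5-fold threshold.

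Over all genes, Ubn2 depletion gave nearly as many upregulated as downregulated genes. There were 1748 upregulated genes, or 9.59% of those tested, and 1595 downregulated genes, or 8.75%. The median log2 fold change of all genes tested was -0.00. Of 2373 genes below 1 CPM in control, 456 were upregulated and 93 downregulated, and 193 of the 456 were near silent outside the Ubn2-depleted libraries and are treated last. Because the control level is also the base of the fold change, genes so low have little room to be called downregulated. Among the 2249 genes above 100 CPM the counts were 57 and 93. The plot of all genes by level shows the largest increases on its left side and a narrower range on its right. Protein-coding genes gave shares of 9.58% upregulated and 8.91% downregulated, and long intergenic non-coding RNAs 12.7% and 9.68%.

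**Figure D1:**
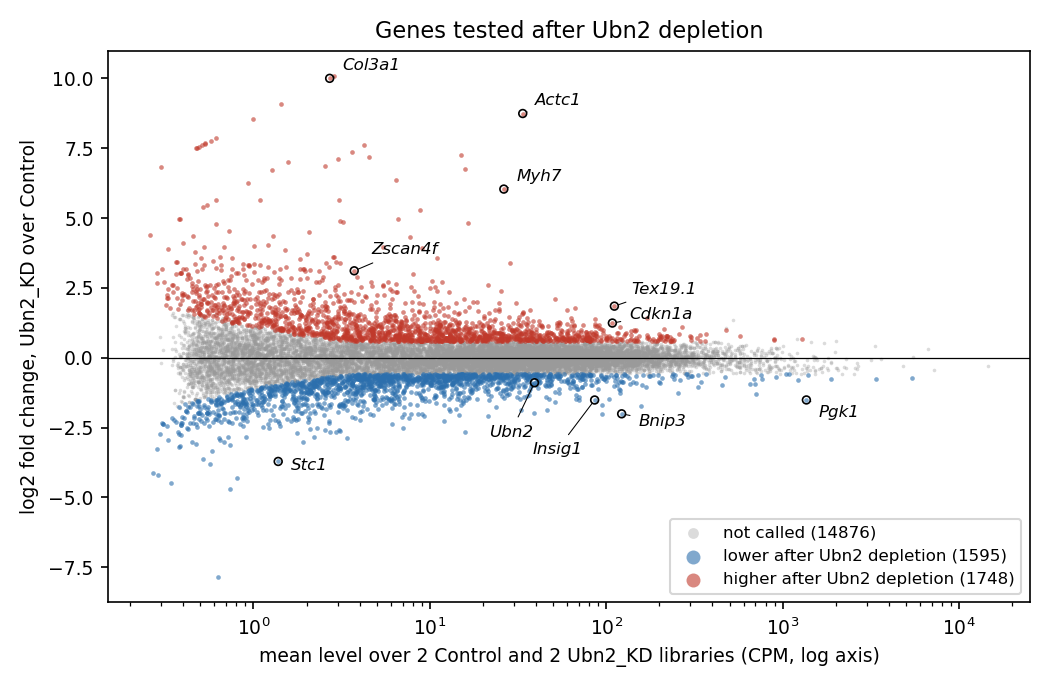
Each point is a gene, placed by its mean level over the 2 Control and 2 Ubn2_KD libraries (CPM, log axis) and by its fitted log2 fold change of Ubn2_KD over Control; the 1748 upregulated genes are red, the 1595 downregulated genes blue and 14876 genes not called grey. Fold changes above 5 on the log2 scale belong to genes low in control, such as Actc1, Col3a1 and Myh7 (1.12 and 0.573 CPM). Bnip3, Pgk1, Cdkn1a and Tex19.1 are changed at high levels.

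Gene lists were then described one at a time by their counts of calls and their median, to be read against the shares of 9.59% and 8.75% over all genes. The metabolic lists with many more downregulated than upregulated genes were the target genes of hypoxia-inducible factors, the glycolytic enzymes, the enzymes of sterol synthesis and the amino acid genes activated by ATF4. Neuronal genes also had more downregulated members. Lists with many more upregulated genes included the clustered histones, the genes of the 2-cell stage, p53 targets and clustered protocadherins. The same held for interferon genes (11 against 2), genes of the actin cytoskeleton and SRF targets (8 against 0) and G1 regulators (7 against 0). Calls on the actin and SRF list included Actc1, Ankrd1, Acta1, Acta2 and Myl9, which are also on lists of muscle markers. All of these but Myl9 were near silent outside the Ubn2-depleted libraries. More upregulated genes were also found for endothelial markers (9 against 1) and heart muscle markers, the last of which are described at the end.

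**Figure D2:**
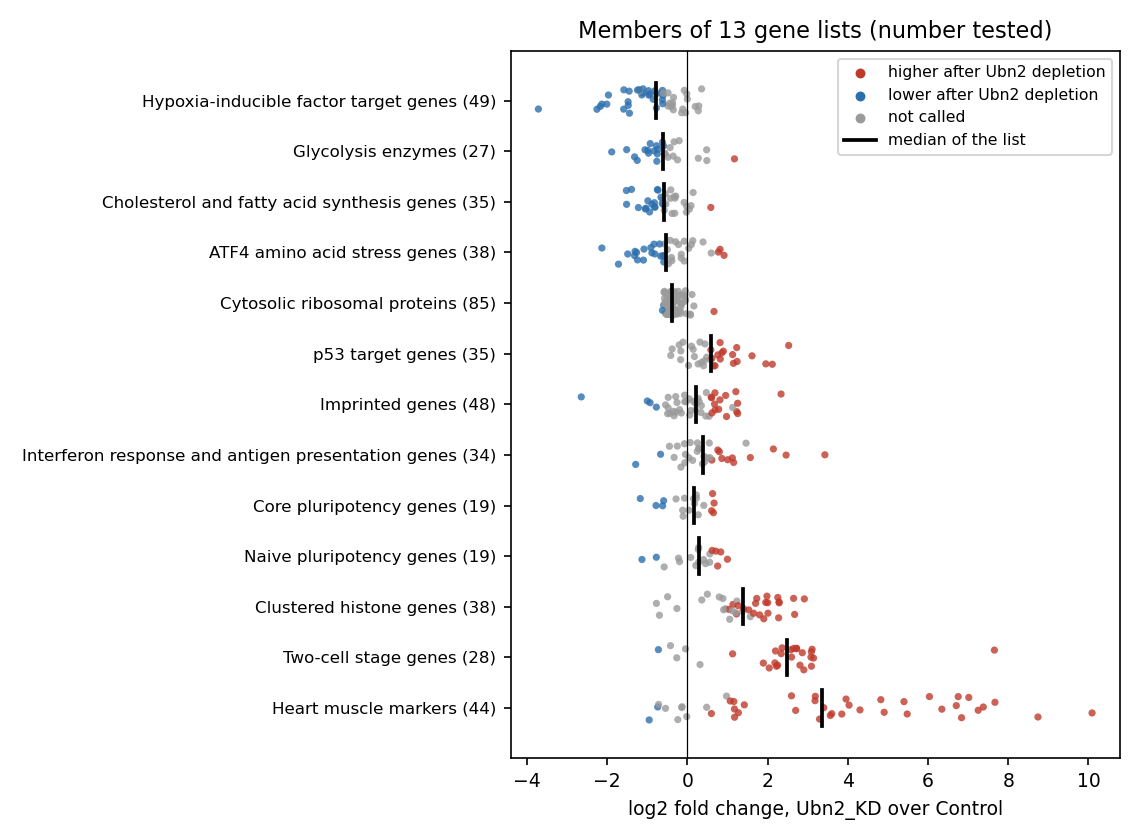
Each point is a tested member of 1 of 13 gene lists, placed by its log2 fold change of Ubn2_KD over Control, with upregulated genes red, downregulated genes blue, other genes grey and the list median as a black bar. Medians run from -0.77 for HIF targets to 2.47 for genes of the 2-cell stage and 3.35 for heart muscle markers.

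Many genes that respond to low oxygen were downregulated. Hypoxia-inducible factors (HIFs) are pairs of a HIF alpha protein, which prolyl hydroxylases mark for destruction by Vhl when oxygen is present, and Arnt. Of 49 tested HIF target genes, 29 were downregulated and 0 upregulated, and the median log2 fold change was -0.77. Bnip3, a mitochondrial protein that triggers mitophagy, gave 181 and 211 CPM in control and 44.7 and 51.7 CPM in depleted cells (log2 fold change -2.01, SE 0.08, edgeR adjusted p = 4.72e-13). In the Hira-depleted libraries Bnip3 was at 91.5 and 93.3 CPM and in the Ubn1-depleted libraries at 110 and 116 CPM, so the Ubn2-depleted libraries were the lowest of the 8 and overlapped with none. Vegfa, the main growth factor for blood vessels, went from 84.0 and 69.6 CPM to 22.5 and 27.9 CPM (log2 fold change -1.59, SE 0.11). Ndrg1, a classical hypoxia marker, went from 53 and 71.3 CPM to 15.0 and 16.5 CPM (-1.97, SE 0.12). Ankrd37 fell by 2.25 on the log2 scale and Stc1, a secreted glycoprotein, went from 2.00 and 3.15 CPM to 0.274 and 0.101 CPM (-3.71). Egln3 (-1.47) and Egln1 (-0.94), prolyl hydroxylases that are themselves HIF targets, were both downregulated, as were the oxidoreductase Ero1l (-1.13), the collagen hydroxylase subunit P4ha1 (-0.96) and the carbonic anhydrase Car9 (-1.58). Of the 49 targets, 45 had a log2 fold change below 0, but the decrease did not reach the thresholds in every target. Among the 20 not called, Pdk1 (-0.45) fell by less than 1.5-fold. Hilpda (-0.08), Kdm3a (0.36) and Hmox1 (0.20) were also among these 20.

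The genes of the HIF pathway itself did not fall as a group. Hif1a was at 98.6 and 88.8 CPM in control and at 123 and 102 CPM in depleted cells (log2 fold change 0.29), and was not called. Epas1, the gene of HIF-2 alpha, was upregulated from 45.4 and 57.8 to 96.3 and 79.3 CPM (0.78, SE 0.10). Arnt (-0.14) and Vhl (-0.07) were not called. Hif3a, whose product is known mainly as an inhibitor of the other alpha proteins, was downregulated from 21.7 and 22.3 to 8.27 and 7.08 CPM (-1.5, SE 0.14). These values are RNA levels, and HIF activity is set largely at the level of protein, which was not measured here.

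The HIF target genes were also lower after Ubn2 depletion than after depletion of its partners. Between the Ubn2- and Hira-depleted libraries, 1042 of 18563 genes were higher after Ubn2 depletion (5.61%) and 2222 lower (12%). Of the tested HIF targets, 1 was higher and 21 were lower. Between the Ubn2- and Ubn1-depleted libraries, 840 of 18205 genes were higher (4.61%) and 744 lower (4.09%), and HIF targets gave 0 and 21. Bnip3 differed by -0.93 from Hira depletion and by -1.22 from Ubn1 depletion on the log2 scale, Vegfa by -0.91 and -1.14, and Ndrg1 by -1.49 and -1.29. Each of these was called. Against the shared control libraries, the list median was -0.32 after Hira depletion, -0.20 after Ubn1 depletion and -0.77 after Ubn2 depletion.

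Glycolysis followed the same direction. Of 27 tested enzymes and transporters, 15 were downregulated and 1 upregulated, with a median log2 fold change of -0.62; 3 of the 27 are also on the HIF list. Pkm, pyruvate kinase and among the most abundant transcripts of the list, went from 6681 and 6971 CPM to 4010 and 4086 CPM (log2 fold change -0.74, SE 0.05). Eno1 fell by 0.76 and Ldha by 0.77 on the log2 scale. Gapdh, the reference gene of the study's qPCR, was at 7906 and 8648 CPM in control and 5855 and 6277 CPM in depleted cells; its log2 fold change of -0.43 stayed under the threshold. The transporter of lactate Slc16a3 was downregulated from 206 and 220 to 106 and 109 CPM (-0.97). Pgam2, the muscle form of phosphoglycerate mutase and also a heart marker, was the upregulated member (2.92 and 3.44 to 7.5 and 6.78 CPM). Against Ubn1 depletion, 2 members were higher and 13 lower; against Hira depletion, 2 and 6. Pkm and Eno1 differed from Hira depletion by only -0.15 and 0.06 and were not called; the Hira-depleted libraries had 4469 and 4537 CPM of Pkm and 2422 and 2368 CPM of Eno1. Enzymes of the tricarboxylic acid cycle (3 of 27 downregulated, 0 upregulated) and nuclear subunits of the respiratory chain (6 of 87 downregulated, 1 upregulated) had smaller medians of -0.22 and -0.14. Their downregulated shares of 11.1% and 6.9% were near the 8.75% of all genes.

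Genes of cholesterol and fatty acid synthesis formed the second downregulated group. Their promoters are activated by SREBP proteins, which are released from the membrane when sterols run low and held back by Insig proteins. Of 35 tested genes, 17 were downregulated and 1 was upregulated, with a median of -0.59. Hmgcs1, which makes the precursor HMG-CoA, was at 229 and 227 CPM in control and 112 and 108 CPM in depleted cells (log2 fold change -1.03, SE 0.07). Further along the pathway, Cyp51 fell by 1.22 and Msmo1 by 1.52 on the log2 scale. Scd1, which desaturates fatty acids, fell by 1.39. Insig1, itself an SREBP target, went from 132 and 123 CPM to 45.0 and 43.2 CPM (-1.51, SE 0.08). It stood at 121 and 119 CPM after Hira depletion and at 70.0 and 80.7 CPM after Ubn1 depletion, so the Hira-depleted libraries lay near control and the Ubn1-depleted libraries between control and Ubn2 depletion. The fatty acid synthase Fasn was at 608 and 636 CPM in control and 658 and 614 CPM in depleted cells (0.05) and was not called.

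In the direct comparison with Hira depletion 1 member of the sterol list was higher and 13 were lower after Ubn2 depletion. In that with Ubn1 depletion 0 were higher and 3 lower, where 4.09% of all genes were lower. Hmgcs1 and Cyp51 differed from Hira depletion by -0.72 and -0.69 and were called; from Ubn1 depletion they differed by -0.36 and -0.32 and were not. Among the regulators, Srebf2 was at -0.41 and Srebf1 at 0.09, neither of them called, while Scap, which escorts SREBP proteins to the Golgi, was upregulated (0.73, SE 0.08). The upregulated member of the list was Ebp, a sterol isomerase, at 30.8 and 29.9 CPM in depleted cells (0.59). This call sat at the threshold and was lost without Control 1, where the log2 fold change was 0.50, and without Ubn2_KD 1 or without a filter on low counts, where it was 0.57.

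Genes for making and charging amino acids were the third such group. They are induced by the transcription factor ATF4 when amino acids are short or the endoplasmic reticulum is stressed. Among 38 tested genes, 18 were downregulated and 3 upregulated (median -0.53). Phgdh, the first enzyme of serine synthesis, was at 236 and 245 CPM in control and 62.6 and 82.0 CPM in depleted cells (log2 fold change -1.72, SE 0.09), and Psat1, the next enzyme, went from 342 and 377 CPM to 140 and 156 CPM (-1.26, SE 0.08). Asparagine synthetase, Asns, went from 437 and 458 CPM to 222 and 257 CPM (-0.88, SE 0.08). In all of these both depleted libraries lay well below both controls. Cth, which makes cysteine, fell by 1.49, Pycr1, a proline enzyme, by 1.30, the glutathione-degrading Chac1 by 1.32 and the seryl-tRNA synthetase Sars by 0.91 on the log2 scale. Atf4 itself was at -0.15, and its targets Ddit3 (-0.40) and Trib3 (-0.39), which act in the stress response rather than in synthesis, were not called. Atf5 (0.77) and Sesn2 (0.82), an inhibitor of mTORC1 signalling, were upregulated. The remaining upregulated member, Cebpb, rested on a single library: it was at 3.02 and 3.60 CPM in control and at 3.79 and 8.70 CPM in depleted cells, and without Ubn2_KD 2 its log2 fold change was 0.21. In Hira- and Ubn1-depleted cells these genes were also below control, Phgdh at 104 and 82.6 CPM and at 122 and 142 CPM. Against Hira depletion, 0 members were higher and 6 lower, where 12% of all genes were lower, and against Ubn1 depletion 3 and 4. Relative to the shared control, the list median was -0.461 after Hira depletion and -0.465 after Ubn1 depletion, near the -0.53 after Ubn2 depletion. Hira depletion had 14 members downregulated and 4 upregulated, and Ubn1 depletion 12 and 0. The decrease of this list was thus not particular to Ubn2 depletion.

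**Figure D3:**
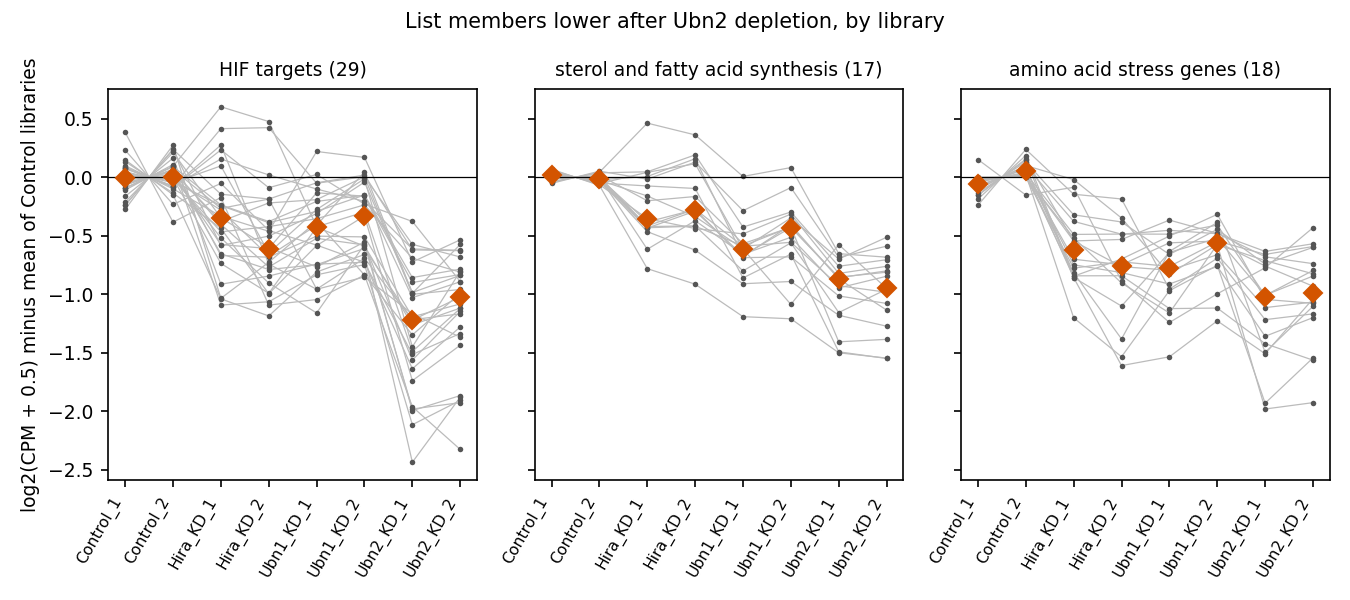
For the downregulated members of 3 lists (29 HIF targets, 17 sterol and fatty acid genes, 18 ATF4 genes), each point and its line is a gene's log2(CPM + 0.5) in a library minus its mean over the control libraries, and diamonds are medians. The medians in the Ubn2_KD libraries were -1.22 and -1.02, -0.87 and -0.95, and -1.03 and -0.99. Those of the Hira_KD and Ubn1_KD libraries lay between -0.28 and -0.78, a distance partly set by the selection of members.

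The members in the plot of downregulated lists by library were selected for being lower after Ubn2 depletion than in control. The distance of their Ubn2_KD medians from all other libraries is therefore partly set by that choice and carries no test. Across the 29 HIF targets, the Hira_KD medians were -0.35 and -0.61 and the Ubn1_KD medians -0.42 and -0.33. For the sterol genes the Ubn1_KD medians of -0.61 and -0.43 lay below the Hira_KD medians of -0.35 and -0.28. Most cytosolic ribosomal protein genes also lay slightly below control after Ubn2 depletion: 80 of 85 had a log2 fold change below 0 and the median was -0.38, but only 2 passed the 1.5-fold threshold downward and 1 upward. The median of this list was also below 0 after Hira depletion (-0.33) and after Ubn1 depletion (-0.16). In the direct tests, 0 members were called lower after Ubn2 depletion than after either of these.

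The starts of these genes were read for the short sequences that the factors named above are known to bind. Windows of 300 bases, from 250 before to 50 after a start of transcription, were taken from RefSeq on GRCm38.p6. There were 15180 such windows for 11911 of the 18219 genes tested, since some genes have several starts, not all of which need be used in ESCs. Some windows lie inside the gene, as does the Vegfa window that holds a match. A gene was counted when any of its windows held the sequence. The core of the hypoxia response element, ACGTG, was searched on both strands and occurred in 28.4% of tested genes with a window and in 24.6% of the windows. It occurred in 25 of 39 HIF targets (64.1%), in 15 of the 23 downregulated HIF targets (65.2%) and in 14 of 25 glycolysis genes (56.0%). Among upregulated genes of all kinds the share was 22.7%, and among downregulated genes 27.8%. The sterol element TCACNCCAC occurred in 1.5% of tested genes, in 1.23% of the windows and in 1 of 24 genes of cholesterol and fatty acid synthesis. The amino acid response element TGATGNAAT occurred in 0.579% of tested genes, in 0.474% of the windows and in 5 of 32 ATF4 genes (15.6%), 3 of which were among the 16 downregulated genes with a window. A window for each element is shown for a downregulated gene described above, with the match in capitals. The Bnip3 window lies on chr7:138909457-138909756, minus strand, and its match starts 108 bases before the start of the gene, where ACGTG is read from both strands of the palindrome. The Hmgcs1 window lies on chr13:119690101-119690400, plus strand, with the match 137 bases before the start. The Pycr1 window lies on chr11:120643699-120643998, minus strand, with the match 103 bases before the start.
Bnip3: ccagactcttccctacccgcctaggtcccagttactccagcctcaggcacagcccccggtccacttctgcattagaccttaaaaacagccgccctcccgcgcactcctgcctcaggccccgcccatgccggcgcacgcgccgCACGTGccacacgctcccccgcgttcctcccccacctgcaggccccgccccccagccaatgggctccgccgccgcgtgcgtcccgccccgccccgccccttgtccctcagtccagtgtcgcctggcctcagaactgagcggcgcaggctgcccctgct
Hmgcs1: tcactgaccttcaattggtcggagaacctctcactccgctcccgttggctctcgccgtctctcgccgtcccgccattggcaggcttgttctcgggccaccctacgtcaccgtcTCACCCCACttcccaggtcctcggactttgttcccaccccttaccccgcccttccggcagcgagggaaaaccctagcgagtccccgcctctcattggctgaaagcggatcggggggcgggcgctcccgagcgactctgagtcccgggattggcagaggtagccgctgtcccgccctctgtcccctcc
Pycr1: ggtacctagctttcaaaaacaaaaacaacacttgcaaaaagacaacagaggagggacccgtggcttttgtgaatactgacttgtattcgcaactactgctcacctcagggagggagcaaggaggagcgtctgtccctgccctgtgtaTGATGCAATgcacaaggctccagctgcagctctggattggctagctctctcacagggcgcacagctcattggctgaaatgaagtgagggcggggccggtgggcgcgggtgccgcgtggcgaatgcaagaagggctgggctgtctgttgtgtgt
A match describes these letters only and is no measurement of binding.

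Many p53 targets were upregulated. The protein p53 is kept low by Mdm2 and, when stabilised by damage or other stress, activates genes that halt the cell cycle or start cell death. Of 35 tested targets, 17 were upregulated and 0 downregulated (median 0.58). Cdkn1a, the cell cycle inhibitor p21, was at 65.4 and 64.6 CPM in control and 151 and 152 CPM in depleted cells (log2 fold change 1.24, SE 0.07, edgeR adjusted p = 1.94e-11). Hira-depleted cells had 94.2 and 79.4 CPM and Ubn1-depleted cells 65.1 and 75.2 CPM, so the Ubn2-depleted libraries stood above all others. The phosphatase gene Ptprv went from 20.4 and 18.6 CPM to 85 and 81.4 CPM (2.12, SE 0.09). Btg2, which slows proliferation, rose by 1.15, Mdm2 by 0.86, Ccng1 by 0.76 and the kinase Plk2 by 1.23. Perp, a target linked to cell death and to adhesion, rose by 1.96 to 50.9 and 47.1 CPM, and the Hira-depleted libraries had 61.9 and 60.7 CPM. The death genes Bax (0.31), Bbc3 (-0.11) and Pmaip1 (0.10) were not called. Trp53 itself was at 264 and 281 CPM in control and 411 and 411 CPM in depleted cells (0.61); its call was lost without Control 1, where the log2 fold change was 0.57. Against Ubn1 depletion 13 targets were higher and 0 lower, and against Hira depletion 4 and 1. Among the other regulators of G1, Ccnd1 (0.78), Rb1 (0.80) and Cdkn2b (1.55) were upregulated, and of the 26 genes on that list 7 were upregulated and 0 downregulated.

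Clustered histone genes were upregulated in large part, while none of the replication-independent variants was called. Of 38 tested clustered histone genes, 22 were upregulated and 0 downregulated (median 1.39). The other 16 were not called, among them Hist2h2be at -0.77, and 9 of the 22 are near silent outside the Ubn2-depleted libraries. Of the 67 genes listed, those near 0 in control could be tested only if counted after Ubn2 depletion, so tested members lean upward. Of 12 variant genes, 0 were called. Hist1h1c, which encodes a linker histone, was at 16.5 and 18.3 CPM in control and 59.1 and 53.1 CPM in depleted cells (log2 fold change 1.70, SE 0.10), and at 31.7 and 31.9 CPM after Hira and 22.3 and 14.5 CPM after Ubn1 depletion. Hist1h2bc rose by 1.40 and Hist1h4i by 2.00. Against Ubn1 depletion 27 members were higher and 0 lower, and against Hira depletion 19 and 1. Most transcripts of these genes lack a poly(A) tail and the libraries were made from mRNA, so only part of their RNA is seen, and near-identical copies can share reads.

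Genes of the 2-cell stage had the highest median of the lists that describe ESC states. They include the Zscan4 cluster, which acts in telomere maintenance, and the Usp17l deubiquitinases. Of 28 tested genes, 23 were upregulated and 1 downregulated, and the median log2 fold change was 2.47. The list holds 50 genes. Those near 0 in control could be tested only if counted after Ubn2 depletion, so this share and median lean upward. Zscan4f was at 0.876 and 0.701 CPM in control and 5.48 and 7.84 CPM in depleted cells (3.11, SE 0.29). After Hira depletion it was at 6.11 and 4.26 CPM and after Ubn1 depletion at 3.60 and 3.34 CPM, above both controls in every depleted library. The difference between Ubn2 and Hira depletion was 0.35 (edgeR adjusted p = 0.273) and that between Ubn2 and Ubn1 depletion 0.95 (edgeR adjusted p = 0.0107). Usp17lb rose by 3.15. Gm12794 had no count in either control library and was at 0.823 and 1.31 CPM after Ubn2 depletion, at least 8.85-fold higher when control is set to a floor of 3 counts per library (0.121 CPM). Zfp365, the most abundant of those named here, rose from 21.8 and 26.4 to 53.3 and 51.1 CPM (1.13), and Rnf165 was the downregulated member (-0.72). List medians against the shared control were 2.47 for Ubn2, 2.00 for Hira and 1.55 for Ubn1 depletion. In the direct tests, 6 genes were higher and 2 lower than after Hira depletion, and 12 and 2 against Ubn1 depletion. Zfp352, Duxf3 and Dppa3 had too few counts to be tested. Because bulk RNA was measured, a larger number of 2-cell-like cells and more RNA in each of them cannot be told apart. The Zscan4 and Usp17l copies are near-identical and can share reads. In the plot of upregulated lists by library, members were selected for being higher in Ubn2_KD than in Control, so the distance of their Ubn2_KD medians from the other libraries is partly set by that choice and carries no test.

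**Figure D4:**
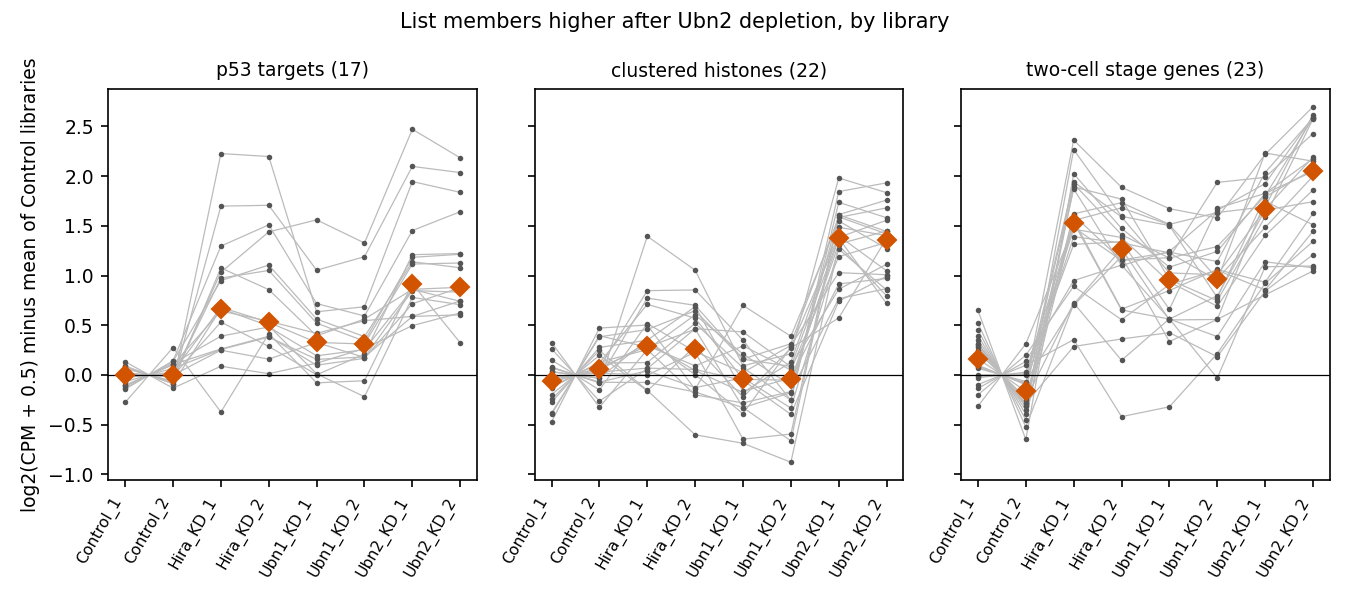
For the upregulated members of 3 lists (17 p53 targets, 22 clustered histones, 23 genes of the 2-cell stage), each point and its line is a gene's log2(CPM + 0.5) in a library minus its mean over the control libraries, and diamonds are medians. Histone medians were 1.38 and 1.36 after Ubn2 depletion, 0.29 and 0.26 after Hira depletion and -0.04 in both Ubn1_KD libraries, and the medians of the 2-cell genes were above control in all 3 depletions.

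The central pluripotency genes did not pass the test in either direction. Pou5f1, which encodes Oct4, was at 1169 and 1271 CPM in control and 1090 and 1132 CPM in depleted cells (log2 fold change -0.12), and Sox2 (0.04), Nanog (0.18) and Zfp42 (-0.10) were not called either. All 4 are defining genes of ESCs and were abundant in both groups. Other members moved in either direction: of 19 core genes 4 were upregulated and 4 downregulated, and of 19 naive genes 5 and 2. Lin28a, an RNA-binding protein that blocks let-7 maturation, was downregulated from 161 and 170 to 72.0 and 73.3 CPM (-1.17, SE 0.07), and it was lower than after Hira (-1.01) or Ubn1 depletion (-0.79). The Nodal co-receptor Tdgf1 fell by 0.78, while Nodal itself rose by 0.72. Nr0b1 rose from 94.8 and 103 to 198 and 192 CPM (1.00), and Prdm14, a repressor of differentiation genes, by 0.83. Otx2 (0.97) and Zic2 (1.19), factors of the primed epiblast, were upregulated, and both were also above control in each Hira- and Ubn1-depleted library. Of 17 tested genes of the primed epiblast and primitive streak, 5 were upregulated and 4 downregulated (median -0.06). The downregulated members included T (-2.36) and Fgf8 (-1.55), both under 1 CPM in control. Of 23 tested primitive endoderm genes 1 was upregulated and 1 downregulated. Of the lineage genes followed in the study, Eomes (-0.06) and Fgfr2 (0.13) were not called and Cdx2 had too few counts. The study reported increases of these genes in medium that directs differentiation to trophoblast stem cells. The libraries here came from ESCs in serum and LIF.

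Germline genes split. Tex19.1, which protects the germline from retrotransposons, was at 52.9 and 45.1 CPM in control and 176 and 170 CPM in depleted cells (log2 fold change 1.85, SE 0.08, edgeR adjusted p = 6.3e-13). It was at 85 and 90.4 CPM after Hira depletion and 84.8 and 85.9 CPM after Ubn1 depletion, below both Ubn2-depleted libraries. Dazl rose by 0.89. The meiotic genes Stra8 (21.5 and 19.7 to 3.84 and 7.13 CPM, -1.90), Smc1b (-1.13) and Meioc (-1.07) were downregulated. In all, 7 of 35 tested germline genes were upregulated and 6 downregulated.

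Imprinted genes were upregulated at several loci. Of 48 tested, 15 were upregulated and 4 downregulated (median 0.21). The non-coding RNAs that are expressed together from the maternal copy of the Dlk1-Dio3 region rose together: Meg3 from 333 and 315 to 613 and 647 CPM (0.98, SE 0.07), Rian by 0.78 and Mirg by 1.21. H19 was at 33.7 and 32.4 CPM in control and 81.8 and 71.0 CPM in depleted cells (1.23, SE 0.09). Its neighbour Igf2, which is expressed from the opposite parental copy, went from 1.95 and 2.29 to 11.7 and 9.66 CPM (2.34, SE 0.21). Both therefore rose. H19 was lower than control after Ubn1 depletion, at 14.6 and 17.2 CPM, and differed between Ubn2 and Ubn1 depletion by 2.27 (edgeR adjusted p = 1.47e-09). The placental genes Ascl2 (-2.64) and Phlda2 (-0.93) were downregulated. No reads were assigned to parental alleles here.

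Smaller groups showed further differences. Of 34 tested genes of the interferon response and antigen presentation, 11 were upregulated and 2 downregulated (median 0.40). They included genes of MHC class I: H2-D1 went from 58.0 and 51.7 to 115 and 120 CPM (1.12), its activator Nlrc5 rose by 2.46, the peptide transporter subunit Tap1 by 1.15 and B2m by 0.86, while Oas3, a sensor of double-stranded RNA, fell by 1.29. H2-D1 was not called against Hira depletion (0.16) and was against Ubn1 depletion (1.19). Against the shared control, 14 genes of this list were upregulated and 1 downregulated after Hira depletion (median 0.48). After Ubn1 depletion the counts were 1 and 0 (median 0.03). Of 37 tested clustered protocadherins, 22 were upregulated and 0 downregulated, but these were genes of the gamma cluster that share their last exons and had near-identical counts, so they amount to a single measurement, represented by Pcdhga10 (58.6 and 63.1 to 97.4 and 94.9 CPM, 0.68). The list median was 0.65 after Ubn2, 0.62 after Hira and 0.09 after Ubn1 depletion. With Hira depletion 24 members were upregulated, and with Ubn1 depletion 0. Neuronal genes went the other way after Ubn2 depletion, with 12 of 35 downregulated and 4 upregulated. Stmn2, a regulator of microtubules, went from 290 and 287 to 178 and 185 CPM (-0.65), the RNA-binding protein Elavl3 fell by 1.31 and the netrin receptor Unc5a by 2.87. Of 34 genes of H3K9 methylation and KRAB repression 2 were upregulated (5.88%, beside 9.59% of all genes) and 0 downregulated. Of 13 genes of DNA methylation and demethylation 3 were upregulated (23.1%) and 0 downregulated. These were Gadd45a (0.95) and Gadd45g (2.08), which are known from the stress response and from demethylation, and the deaminase Apobec1 (0.63), whose call was lost without Control 1, at 0.55. No methyltransferase tested was called.

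Among abundant genes, averaging at least 50 CPM over the 4 libraries, the smallest adjusted p of upregulated genes were those of Ptprv, Tex19.1 and the translation factor Eif4g3, which rose from 27.8 and 32.0 to 104 and 101 CPM (1.79, SE 0.08). Laptm5, a lysosomal protein, went from 96.5 and 91.5 to 248 and 246 CPM (1.41). In the downward direction the leading genes were Bnip3 and Anxa2, a membrane-binding annexin that went from 164 and 139 to 35.7 and 39.0 CPM (-2.0, SE 0.09). The phosphoglucomutase Pgm1 (-1.69), the protease inhibitor A2m (-1.49) and the axonemal dynein Dnah8 (-1.26) followed. Among genes averaging at least 1 CPM and not near silent in the other libraries, Limch1 had one of the largest increases outside the heart list, from 1.07 and 1.15 to 18.2 and 15.5 CPM (3.93), and after Hira or Ubn1 depletion it was between 2.19 and 2.80 CPM. Large decreases were found for Stc1, the mucin gene Muc2 (-3.02), Unc5a, Plac8 (-2.84) and Pou2f3, a transcription factor that went from 23.9 and 31.1 to 4.25 and 4.45 CPM (-2.65).

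RNA of heart muscle was found in both Ubn2-depleted libraries. Of 44 tested heart muscle markers, 34 were upregulated and 2 downregulated, and the median log2 fold change was 3.35, or 3.19 when 3 genes without counts in control are set at their lower bound. Of the 34, 19 were near silent outside the Ubn2-depleted libraries. Of the 49 genes listed, those near 0 in control could be tested only if counted after Ubn2 depletion, so this share and median lean upward. Actc1, cardiac actin, was at 0.0974 and 0.191 CPM in control and at 84.8 and 49.3 CPM in the Ubn2-depleted libraries, and it lay between 0.0455 and 0.243 CPM in the Hira- and Ubn1-depleted libraries. Myh7, a cardiac myosin heavy chain, was at 1.12 and 0.573 CPM in control and 61.5 and 41.8 CPM after depletion, and Tnnt2, cardiac troponin T, at 0.389 and 0.223 CPM and at 38.7 and 23.9 CPM. Myl2, a myosin light chain of ventricular muscle, went from 1.31 and 1.02 to 38.8 and 25.1 CPM. Each of these 4 genes was higher in Ubn2_KD 1 than in Ubn2_KD 2, and neither depleted library overlapped with any other. Csrp3, a muscle LIM protein, had no counts in control and was at 7.95 and 3.54 CPM after depletion, at least 47.6-fold higher against the floor. The cardiac transcription factor Nkx2-5 was at 0.389 and 0.478 CPM in control and at 1.10 and 0.607 CPM after depletion and was not called, nor was Tbx20. Myl7, the atrial light chain, was downregulated (-0.95). Fabp3, the other downregulated member (-0.74), lost its call without Control 1, with a log2 fold change of -0.58.

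Markers of other tissues gave smaller amounts. Hbb-bs, adult beta globin, had no count in control and was at 3.43 and 2.28 CPM after Ubn2 depletion, and Hba-a1 was at 2.60 and 1.06 CPM, while the embryonic globins Hba-x, Hbb-bh1 and Hbb-y had no count in either Ubn2-depleted library. Of 18 tested endothelial markers 9 were upregulated and 1 downregulated, and 4 of the 9, Fabp4, Cdh5, Aqp1 and Ly6c1, were near silent in the other libraries. Genes near 0 in control could be tested only if counted after Ubn2 depletion, so this share leans upward too. The fibroblast and connective tissue list went in both directions: Col3a1, Col1a2 and Postn, all near silent elsewhere, were upregulated, and 5 of 16 were downregulated, such as Pdgfrb (-1.48) and Fbln1 (-0.91). On the leukocyte list Laptm5 (1.41), Cd68 (1.47) and Mrc1 (1.21) of 9 tested genes were upregulated, none of them near silent elsewhere, and 1 was downregulated. On the skeletal muscle list 3 of 12 were upregulated and 2 downregulated, and of these Acta1 (3.25), skeletal actin, was near silent elsewhere. The defining leukocyte genes Ptprc, Lyz1, H2-Aa, Tyrobp and S100a8 and the skeletal muscle genes Myod1, Myf5, Myh1 and Myh2 were at 0 in both Ubn2-depleted libraries. The summed level of the heart list was 416 and 369 CPM in control, between 271 and 432 CPM after Hira or Ubn1 depletion and 824 and 624 CPM after Ubn2 depletion. That of the leukocyte list was 145 and 138 CPM in control and 330.1 and 332.6 CPM after Ubn2 depletion, and Laptm5, which ESCs express in all 8 libraries, made up most of it. The sum of the fibroblast list was 191 and 202 CPM in control and 160 and 145 CPM after Ubn2 depletion, and that of the endothelial list 295 and 293 CPM and 367 and 358 CPM. The sum of the erythroid list was 35.7 and 38.1 CPM in control and 41.8 and 37.4 CPM after depletion, and that of the skeletal muscle list was 185 to 200 CPM in control and 190.5 and 191.4 CPM after depletion.

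In all, 193 upregulated genes (11.0% of the 1748) averaged under 0.5 CPM over the 6 Control, Hira_KD and Ubn1_KD libraries, and 31 of them were on a list of another cell type, 19 of these on the heart list. These genes were selected by their levels, so what follows describes them. A further 142 were on no list of any kind. The 31 listed genes summed to 4.14 and 3.44 CPM in control, to between 3.96 and 6.51 CPM after Hira or Ubn1 depletion, and to 271.6 and 164.3 CPM after Ubn2 depletion. Their ratio between Ubn2_KD 1 and Ubn2_KD 2 had a median of 1.64, and 27 of 31 were above 1. The ratio had a median of 1.00 over all genes and 1.06 over the 162 near-silent genes on no list of other cells, of which 94 were above 1. For the 23 upregulated 2-cell genes it was 0.68, with 3 above 1. Most of the listed heart, blood and connective tissue genes were thus more abundant in the first depleted library, and most of the 2-cell genes in the second. The lists do not hold every muscle gene, so the 31 are not a full count. In Ubn2_KD 1 and 2, unlisted Tnni1, a muscle troponin, was at 22.7 and 11.5 CPM and unlisted Fhl2 at 7.68 and 4.70 CPM. Of the unlisted genes, 7 overlap a heart gene, among them Mhrt, which lies antisense to Myh7. Since no strand setting is stated, the reads of these 7 cannot be told from those of the heart gene. Whether the heart and blood RNA came from the depleted cells or from other material was not tested. Without the 193 genes, 1555 of 18026 genes were upregulated and 1595 downregulated. Only upregulated genes were taken out, so the lower upregulated count follows from that choice. A fit without any gene near silent outside Ubn2_KD, whatever its direction, gave 1616 upregulated and 1543 downregulated genes. The 193 include 9 clustered histone genes and 5 genes of the 2-cell stage, Gm12794 among them.

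**Figure D5:**
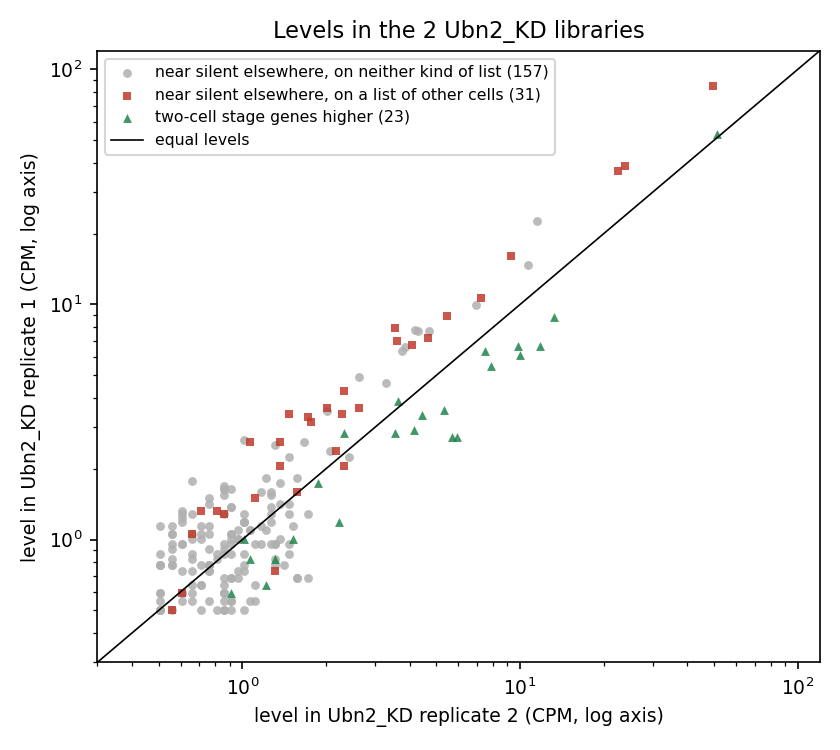
Level of each gene in Ubn2_KD 1 against Ubn2_KD 2 (CPM, both axes log), for upregulated genes near silent in the other libraries (31 on lists of other cell types, 157 on neither kind of list) and for the 23 upregulated genes of the 2-cell stage; the line marks equal levels. Most of the 31 listed genes, 27, lie above the line and 20 of the 2-cell genes below it.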

How the data were processed

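Messenger RNA of the 8 ESC libraries was sequenced in paired ends. The authors deposited raw counts of reads per gene, made with Trim Galore, STAR and featureCounts on GRCm38; versions, strand setting and the treatment of multi-mapped reads are not given in the sources used here. The control counts were the same in the 3 deposited tables (0 differing values) and were used once. Totals on genes ranged from 19710040 to 32706053. Gene positions came from GENCODE M21, in which 55303 of 55418 symbols matched a single gene.

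Ubn2_KD was compared with Control, Hira_KD and Ubn1_KD with edgeR 4.0.16 in R 4.3.3, on the libraries compared only. Settings were TMM normalization, the filterByExpr filter, quasi-likelihood tests and Benjamini-Hochberg adjustment over all genes tested, and a call needed both 0.05 for the adjusted p and 1.5 for the fold change. Standard errors were derived from the log2 fold change and its quasi-F value. For a single value, an exact two-sided permutation test of 2 against 2 libraries cannot go below 0.333 and was not used. In simulated data the tests recovered large changes put into well-counted genes. Smaller changes, and changes in genes with few counts, were not simulated. Lists were described by counts and medians, without set tests. Near silent means a mean under 0.5 CPM over the 6 libraries other than Ubn2_KD.

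Named genes were the complex members, the 12 highest and 12 lowest fold changes at 1 CPM or more, up to 4 members of each list by adjusted p, the 10 abundant genes by adjusted p in each direction, the leading near-silent genes and the genes followed by qPCR in the study. Further genes were named after their values were seen. The members and lists were chosen with earlier results of these data known. Alternatives were DESeq2 1.42.0, its size factors, other filters on low counts, all 8 libraries in 1 fit, a replicate block, adjusted p alone and each library left out in turn. Equal replicate numbers did not pair libraries, with correlations of deviations of -0.0251, -0.0379 and 0.0444 over 19264 genes. Tables and plots were made in Python 3.11.15 with pandas 2.3.3 and matplotlib 3.10.9. Some single genes are not reported here.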

Additional observations from a re-analysis of the deposited data

How the results depend on the processing

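Of the 394 named genes under up to 11 alternatives, no log2 fold change changed its direction, 122 values lost their call and 28 gained one. Without the 1.5-fold threshold, by adjusted p alone, 3645 genes were higher and 3473 lower after Ubn2 depletion than in control, 3186 and 3455 against Hira depletion, and 1566 and 1453 against Ubn1 depletion. DESeq2 gave 1338 and 1084 against control, of which 1332 and 1084 were also called by edgeR, and 524 and 483 against Ubn1 depletion. Leaving out each library in turn left 1566 to 1723 higher and 1311 to 1578 lower genes against control. With a replicate block the counts were 1765 and 1595 against control, 1050 and 2206 against Hira depletion and 966 and 834 against Ubn1 depletion, so no count moved by more than 1.5 times. The median of the erythroid list, 0.11, was -0.11 without near-silent genes and -0.059 with at least 10 counts in every library, both of which leave out the globin genes. Of the other list medians, 142 values moved by more than the spread between libraries. At this depth, genes with few counts were called only for large changes.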
